A study of Homo sapiens with 4 samples.

Results

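Transcripts of the mitochondrial genome and their copies in the nuclear genome were examined in gastric cancer cells exposed to isorhamnetin (ISO), a plant flavonol. The members are all genes that the deposited table places on the mitochondrial chromosome (MT), together with the nuclear genes whose symbols mark them as copies of mitochondrial mRNA genes, which gave 32 of the 2897 genes in the table. They comprise 13 protein-coding genes (each counted as 1 mRNA below), 2 rRNAs, 14 tRNAs and 3 nuclear copies on chromosome 1. RNA-seq had been run on 4 libraries from 2 cell lines, AGS-1 (labelled AGS, from a gastric adenocarcinoma) and HGC-27 (from a gastric carcinoma), both with a wild-type genotype per the labels. In each line 1 library came from untreated cells and 1 from cells given ISO, for which the labels state 50 μM for 24 h and the text of the article a lower dose. The article speaks of duplicates for this experiment, whereas the labels and the table hold 1 sample per condition and line, and whether a column pools several cultures is not given in the sources used here. A difference between ISO and control within a line therefore cannot be told apart from a difference between those 2 cultures or libraries. Identity markers of an epithelial cell separated the lines: EPCAM, an epithelial adhesion protein, had 248 FPKM without and 167 FPKM with ISO in AGS-1, against 0.387 and 0.506 FPKM in HGC-27, and the keratin gene KRT19 was listed at 0 in both HGC-27 libraries. The intermediate filament gene VIM had 306 and 249 FPKM in HGC-27 and 0.697 and 0.860 FPKM in AGS-1.

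The human mitochondrial genome is a small circle read from both strands into long precursor RNAs, and most of its mRNAs and rRNAs are cut free where tRNAs lie between them. Its mRNAs encode subunits of the respiratory chain complexes I, III and IV and of the ATP synthase (complex V), while its rRNAs and tRNAs serve the translation system inside the organelle. Fragments of mitochondrial DNA have been inserted into nuclear chromosomes during evolution, and such copies can be so similar to the mitochondrial gene that short reads fit both places.

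How nearly the nuclear copies match their parents decides how their values can be read, so stretches of the 3 pairs are shown first. Each is the 90-base window in which copy and parent differed most, taken from the transcripts of GENCODE 29 on GRCh38, all on the plus strand, with the differing bases in capitals. The windows lie at chr1:630072-630161 for MTND2P28 and MT:4902-4991 for its parent MT-ND2, at chr1:631380-631469 for MTCO1P12 and MT:6210-6299 for MT-CO1, and at chr1:633798-633887 for MTATP6P1 and MT:8629-8718 for MT-ATP6.
MTND2P28: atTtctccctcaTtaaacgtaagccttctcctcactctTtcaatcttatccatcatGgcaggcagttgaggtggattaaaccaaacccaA
MT-ND2: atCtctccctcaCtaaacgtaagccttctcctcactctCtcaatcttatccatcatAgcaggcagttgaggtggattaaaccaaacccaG
MTCO1P12: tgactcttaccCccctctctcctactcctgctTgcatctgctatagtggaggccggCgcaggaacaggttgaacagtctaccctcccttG
MT-CO1: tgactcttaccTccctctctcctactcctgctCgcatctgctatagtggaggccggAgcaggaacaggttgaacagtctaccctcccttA
MTATP6P1: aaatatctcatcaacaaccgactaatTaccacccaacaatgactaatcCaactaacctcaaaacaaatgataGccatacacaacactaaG
MT-ATP6: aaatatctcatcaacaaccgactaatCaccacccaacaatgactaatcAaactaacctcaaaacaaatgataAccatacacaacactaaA
Even in these windows the pairs differed at 5, 4 and 4 positions, respectively. Over the whole aligned length, MTND2P28 was 98.4% identical to MT-ND2 with 17 substitutions and 2 gap positions in 1044, MTCO1P12 was 98.7% identical to MT-CO1 with 20 substitutions and 1 gap position in 1543, and MTATP6P1 was 98.5% identical to MT-ATP6 with 10 substitutions and no gap in 681. The longest stretch without any difference was 266, 245 and 141 bases, and 60.2%, 63.6% and 79.3% of the positions lay in identical runs of at least 75 bases. A fragment that falls within such a run carries no base that tells copy from parent.

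The tRNA genes are shown because their values moved furthest between libraries: MT-TD (tRNA for aspartate, MT:7518-7585) and MT-TL1 (leucine, MT:3230-3304) had the largest ratios in AGS-1, MT-TV (valine, MT:1602-1670) had opposite directions in the lines, and MT-TN (asparagine, MT:5657-5729) and MT-TC (cysteine, MT:5761-5826) held most of the tRNA fragments. MT-TN and MT-TC lie on the minus strand and the others on the plus strand. The capitals mark the anticodon, found as the triplet in the loop of the best-paired stem.
MT-TD: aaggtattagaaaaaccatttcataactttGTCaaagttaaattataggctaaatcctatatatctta
MT-TL1: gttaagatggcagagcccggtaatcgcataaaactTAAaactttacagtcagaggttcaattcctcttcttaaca
MT-TV: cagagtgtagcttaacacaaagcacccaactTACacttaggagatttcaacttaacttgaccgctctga
MT-TN: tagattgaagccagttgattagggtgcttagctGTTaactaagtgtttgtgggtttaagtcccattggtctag
MT-TC: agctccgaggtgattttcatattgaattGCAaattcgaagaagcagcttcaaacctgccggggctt
At 66 to 75 bases each, these genes are short, and a fragment counted in one of them may belong to the processed tRNA or to a longer precursor. The libraries were made with an mRNA kit, and which of these RNAs gave the fragments was not tested.

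The deposited values are FPKM, fragments scaled by gene length and library size. Multiplied by gene length they were whole multiples of 1 step per library for 100% of values within a tolerance of 0.01, which gave back whole fragments and library totals of 15235004 (AGS-1 control), 15957590 (AGS-1 ISO), 20199425 (HGC-27 control) and 17072456 (HGC-27 ISO). The 2897 listed genes held 78.5%, 64.4%, 61.0% and 59.96% of these totals in the same order. All 32 members passed the filter on low values, a mean over the libraries of 1 FPKM or more, as did 2883 genes in all. Intervals below come from these fragments and cover counting error only. Of the 37 mitochondrial genes in GENCODE 29, 29 are in the table, and the tRNA genes MT-TF, MT-TQ, MT-TM, MT-TW, MT-TA, MT-TK, MT-TS2 and MT-TL2 were not analysed here.

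The mitochondrial chromosome took a larger share of the library after ISO in both cell lines. Its genes held 9.43% of all fragments of untreated AGS-1 (95% exact binomial interval 9.42 to 9.45) and 14.3% of those of treated AGS-1 (14.27 to 14.30). In HGC-27 the shares were 9.75% (9.73 to 9.76) without and 12.4% (12.36 to 12.39) with ISO. Most of the increase lay in the mRNAs, which went from 6.93% to 11.7% of the library in AGS-1 and from 7.14% to 9.55% in HGC-27. The rRNAs stayed between 2.45% and 2.68% of the library in all 4. The tRNA genes held 0.0529% and 0.120% in AGS-1 and 0.130% and 0.144% in HGC-27, so that the AGS-1 control had the lowest tRNA share. Taken as a share of the listed genes only, the mitochondrial chromosome held 12.02% and 22.2% in AGS-1 and 16.0% and 20.6% in HGC-27. The share of the library held by listed genes moved with ISO in AGS-1, from 78.5% to 64.4%, and its part in these shares was not tested. In bulk RNA, fewer cells of a type and less RNA per cell cannot be told apart, and the same holds for the other RNAs against which a share is measured.

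**Figure D1:**
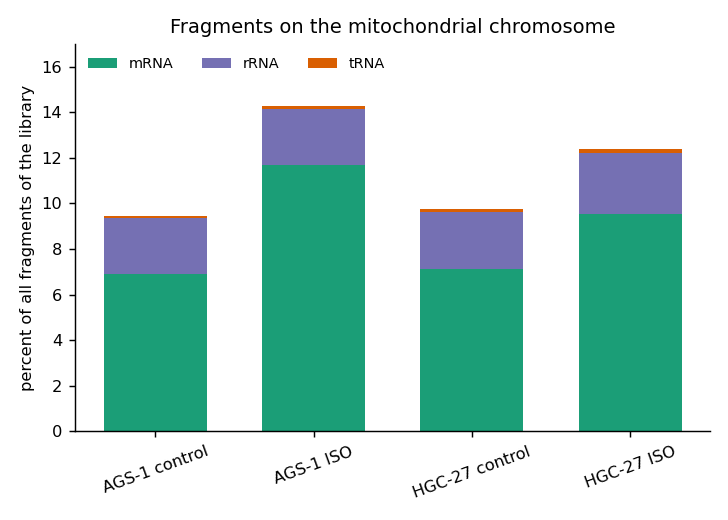
Percent of all fragments of each library that fell on mitochondrial mRNA, rRNA and tRNA genes (stacked bars, vertical axis from 0; 1 library per bar). The mRNA segment is taller with ISO in both lines, 11.7% against 6.93% in AGS-1 and 9.55% against 7.14% in HGC-27, while the rRNA segment stays between 2.45% and 2.68%.

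All 13 mitochondrial mRNAs were higher in the ISO library than in the control of both AGS-1 and HGC-27. Of all 2883 genes tested, 20.4% had a log2 ratio above 0 in AGS-1, 35.3% in HGC-27 and 13.0% in both, on the scaling of the deposited values. With the values scaled by the summed nuclear genes these shares were 66.3%, 52.8% and 41.7%, the 13 mRNAs still being above 0 in both lines. The ratios ran from 0.40 (MT-ND6) to 1.17 (MT-CYB) in AGS-1, with a median of 0.87, and from 0.21 (MT-CO1) to 0.90 (MT-ATP8) in HGC-27, with a median of 0.59, against medians of all genes of -0.29 and -0.11. Relative to those medians, the mRNA medians were 1.16 and 0.70. At least 2-fold higher in AGS-1 were 5 of the 13, MT-CO2, MT-ND4L, MT-ND5, MT-CYB and MT-ATP6, and none was in HGC-27. MT-ND5 and MT-ATP6 lay at the threshold, with counting intervals of the fold of 1.98 to 2.02 and 1.996 to 2.04. Over the 32 members, 10 were at least 2-fold higher in AGS-1, where 0.832% of all genes were, and 2 in HGC-27, where 0.555% were. The AGS-1 count was 20 under median-of-ratios, upper-quartile and nuclear-sum scaling, and under the last of these 75 of all genes were at least 2-fold higher and 38 lower, against 24 and 192 on the deposited scaling. No member was at least 2-fold lower in either line, against 6.66% of all genes in AGS-1 and 0.937% in HGC-27. A 2-fold difference in either direction was found for 7.49% and 1.49% of all genes.

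Complex I takes electrons from NADH, and 7 of its subunits are made from mitochondrial mRNAs. MT-ND1, a core subunit near the site where electrons enter the membrane, stood at 4586 FPKM without and 8394 FPKM with ISO in AGS-1 and at 4534 and 7038 FPKM in HGC-27, log2 ratios of 0.87 and 0.63. Below, the value of the untreated library is always given before that of the ISO library. MT-ND2, which encodes a core membrane subunit, had 3502 and 6664 FPKM in AGS-1 and 3909 and 6138 FPKM in HGC-27. Both mRNAs had close control levels in the lines and were higher with ISO in each. MT-ND4L and MT-ND4 are neighbouring genes that share 7 bases at MT:10760-10766, and both encode membrane subunits. MT-ND4L had 6076 and 12508 FPKM in AGS-1 and 6925 and 10428 FPKM in HGC-27, and MT-ND4 had 6357 and 10853 FPKM and 7351 and 9568 FPKM. MT-ND4L had the larger ratio of the pair in both lines, 1.04 against 0.77 in AGS-1 and 0.59 against 0.38 in HGC-27. MT-ND5 had 2426 and 4856 FPKM in AGS-1 and 1907 and 2720 FPKM in HGC-27. MT-ND3 had 4331 and 6067 FPKM in AGS-1 and 3078 and 5361 FPKM in HGC-27, and with MT-ND6 and MT-ATP8 it was 1 of the 3 mRNAs with a larger ratio in HGC-27 (0.80) than in AGS-1 (0.49). MT-ND6 (MT:14149-14673) is the only mRNA gene of the minus strand. Its values were 4135 and 5450 FPKM in AGS-1 and 2073 and 2978 FPKM in HGC-27, so that both HGC-27 libraries lay below both AGS-1 libraries. Whether fragments were assigned by strand is not given in the sources used here, and RNA from the opposite strand of MT-ND6 cannot be told apart from its own.

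Complexes III and IV pass electrons on to oxygen. MT-CYB (MT:14747-15887), cytochrome b of complex III, had 2425 and 5463 FPKM in AGS-1 and 2605 and 4545 FPKM in HGC-27. Its fold was 2.25 in AGS-1 (exact 95% interval 2.23 to 2.28) and 1.74 in HGC-27 (1.73 to 1.76), and its ratio was the largest of the 13 in AGS-1. MT-CO1 (MT:5904-7445), the catalytic subunit of complex IV, had the highest mean level of the members, with 15990 and 22202 FPKM in AGS-1 and 15359 and 17803 FPKM in HGC-27. MT-CO2, which receives electrons from cytochrome c, had 9287 and 19221 FPKM and 11916 and 18595 FPKM. MT-CO1 had the smaller ratio of the pair in both lines, so the ratio of MT-CO1 to MT-CO2 went from 1.72 to 1.16 in AGS-1 and from 1.29 to 0.957 in HGC-27. MT-CO3, the remaining complex IV mRNA, had 7949 and 13731 FPKM in AGS-1 and 8395 and 9800 FPKM in HGC-27.

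In the ATP synthase, 2 subunits come from overlapping genes, with 46 bases of MT-ATP8 inside MT-ATP6. MT-ATP6, part of the proton channel, had 3800 and 7678 FPKM in AGS-1 and 5510 and 6928 FPKM in the HGC-27 line, log2 ratios of 1.01 and 0.33. MT-ATP8 (MT:8366-8572), a small membrane subunit, was listed far lower, at 82.4 and 143.8 FPKM in AGS-1 and 42.3 and 80.1 FPKM in HGC-27, from 260, 475, 177 and 283 fragments. The ratio of MT-ATP6 to MT-ATP8 was 46.1 and 53.4 in AGS-1 and 130 and 86.5 in HGC-27, so it moved in opposite directions in the lines. How fragments in the shared bases were assigned is not given in the sources used here. The low level of MT-ATP8, this ratio and the limma results of MT-ATP8 below are uncertain for that reason.

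**Figure D2:**
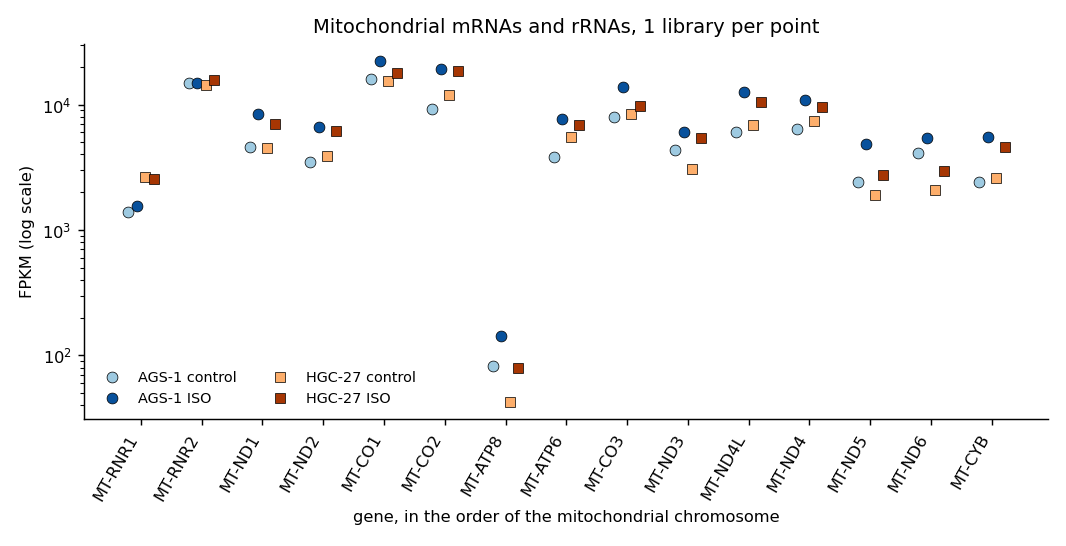
FPKM (log scale) of the 2 rRNAs and 13 mRNAs in chromosome order, 1 point per library (circles AGS-1, squares HGC-27; pale control, dark ISO). For each mRNA the dark point lies above the pale one of its line, and MT-ATP8 lies between 42.3 and 143.8 FPKM while the next lowest value of any mRNA is 1907 FPKM (MT-ND5).

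The make-up of the summed mRNA FPKM by complex moved less than its level. Complex I mRNAs made up 44.3% and 44.5% of the sum in AGS-1 and 40.5% and 43.4% in HGC-27. The 3 mRNAs of complex IV made up 46.8% and 44.8% in AGS-1 and 48.5% and 45.3% in HGC-27. MT-CYB alone went from 3.42% to 4.43% in AGS-1 and from 3.54% to 4.46% in HGC-27, a like shift in both lines. The 2 mRNAs of complex V went opposite ways, from 5.47% to 6.35% in AGS-1 and from 7.54% to 6.87% in HGC-27. The order of the mRNAs was close to the same in the controls (Pearson's r = 0.98 and Spearman's rho = 0.91 of log2 levels over 13 mRNAs), whereas the ISO ratios of the lines were weakly related (r = 0.21, rho = 0.33). These points share 2 libraries each and are not independent. MT-ATP8, far below the other mRNAs in level, can raise the r of the controls, and r without it was not computed. Along the chromosome, the ratio of the 12 plus-strand mRNAs was weakly related to gene order, with r = 0.29 in AGS-1 and 0.08 in HGC-27.

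The 2 rRNAs, which form the RNA of the mitochondrial ribosome, differed far less between ISO and control than the mRNAs did. MT-RNR2 (MT:1671-3229), the RNA of the large subunit, had 14877 and 14833 FPKM in AGS-1 and 14292 and 15646 FPKM in HGC-27. MT-RNR1 (MT:648-1601), of the small subunit, had 1383 and 1551 FPKM in AGS-1 and 2641 and 2543 FPKM in HGC-27. The log2 ratios of MT-RNR1 were 0.17 and -0.06, the latter reaching 0.10 when values were scaled by the upper quartile. That of MT-RNR2 was -0.0043 in AGS-1, where it reached 0.48 when values were scaled by the summed values of the nuclear genes, and 0.13 in HGC-27. With summed mRNA FPKM of 70947 and 123231 in AGS-1 and 73606 and 101983 in HGC-27, the ratio of mRNA to rRNA, in which scaling cancels, went from 4.36 to 7.52 in AGS-1 and from 4.35 to 5.61 in HGC-27. It was thus nearly equal in the controls and higher in both ISO libraries. Since the libraries were made with an mRNA kit, how far these values follow the amount of rRNA in the cells was not tested. MT-RNR2 exceeded MT-RNR1 by 10.8 and 9.56 times in AGS-1 and by 5.41 and 6.15 times in HGC-27.

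In the sign of their ratios, the tRNA genes went apart by cell line. In AGS-1, 13 of 14 were higher with ISO and 4 of them at least 2-fold higher (MT-TD, MT-TL1, MT-TN and MT-TG). In HGC-27, 5 of 14 were higher and only MT-TI was at least 2-fold higher. The counting interval of the fold in AGS-1 included 1 for MT-TY, MT-TI, MT-TR, MT-TH and MT-TS1. In HGC-27 it lay below 1 only for MT-TV, MT-TL1, MT-TY and MT-TE. The median log2 ratios were 0.90 and -0.16. A ratio above 0 in AGS-1 and below 0 in HGC-27 was found for 8 of the 14, against 7.42% of all genes, and 13 of 14 had the larger ratio in AGS-1, against 27.3% of all genes. With nuclear-sum scaling, those shares of all genes were 24.6% and 64.1%, while the counts of tRNA genes are on the deposited scaling. Over the scalings tried, the HGC-27 ratios of MT-TC and MT-TD and the AGS-1 ratio of MT-TS1 took either sign, so the 8 can change. On the deposited scaling, only MT-TV, MT-TL1 and MT-TE of the 8 had counting intervals away from 1 in both lines. The ratios of the lines were unrelated over the 14 tRNA genes (r = -0.02, rho = 0.15), while the control levels were related (r = 0.89, rho = 0.79). The difference between the lines was not tested, since each line has 1 library per condition.

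MT-TD, whose sequence is shown above, went from 9 to 70 fragments in AGS-1 and from 95 to 73 in HGC-27. Its fold in AGS-1 was 7.43, with a wide counting interval of 3.70 to 16.9, and the low value was that of the AGS-1 control alone. MT-TL1 showed the same layout at a greater depth, with 140 and 622 fragments in AGS-1 and 1126 and 840 in HGC-27, or 123, 520, 743 and 656 FPKM. Its fold was 4.24 (3.53 to 5.13) in AGS-1 and 0.883 (0.806 to 0.966) in HGC-27. MT-TV, between the rRNA genes, had 32 and 67 fragments in AGS-1 and 180 and 91 in HGC-27. As for MT-TD and MT-TL1, the AGS-1 control was lowest and the HGC-27 control highest. MT-TG (glycine) had 40 and 105 fragments in AGS-1 and 69 and 49 in HGC-27, and MT-TE (glutamate, minus strand) had 56 and 104 and then 71 and 39. MT-TI (isoleucine) differed from these genes in direction only in HGC-27. It had 31 and 39 fragments in AGS-1, a fold of 1.20 (0.73 to 1.99), and 11 and 25 in HGC-27, a fold of 2.69 (1.28 to 6.05).

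Minus-strand genes gave most of the tRNA fragments in every library, chiefly through MT-TN, MT-TC and MT-TP. MT-TE and MT-TS1, also of the minus strand, had only 26 to 104 fragments. Whether fragments were assigned by strand is not given, so RNA from the opposite strand cannot be told apart here. The minus-strand genes held 7509 and 17730 fragments in AGS-1 and 24470 and 23202 in HGC-27, where the plus-strand genes held 548 and 1382 and then 1745 and 1322. MT-TN had 3037 and 8747 FPKM in AGS-1 and 6846 and 9197 FPKM in HGC-27, a level like that of an mRNA. MT-TC, 31 bases from it, had 3022 and 5511 FPKM in AGS-1 and 6942 and 6896 FPKM in HGC-27. MT-TP (proline, MT:15956-16023) had 557 and 1061 FPKM in AGS-1 and 2500 and 2601 FPKM in HGC-27, so that for all 3 genes the AGS-1 control was lowest. The 3 tRNA genes with the most fragments held between 86.8% and 90.7% of all tRNA fragments of a library. MT-TY (tyrosine), which overlaps MT-TC by 1 base, had 433 and 456 fragments in AGS-1 and 1566 and 881 in HGC-27. The remaining genes differed little from their counting error: MT-TH (histidine) had 103, 116, 56 and 50 fragments, MT-TR (arginine) 45, 67, 29 and 20, MT-TS1 (serine) 26, 26, 49 and 30, and MT-TT (threonine) 148, 296, 179 and 174, of which only MT-TT in AGS-1 had an interval of its fold away from 1 (1.56 to 2.34). The HGC-27 ratios of MT-TC (-0.0097) and MT-TD (-0.14) turned positive, at up to 0.14 and 0.01, and the AGS-1 ratio of MT-TS1 (-0.06) did so at up to 0.40, under other scalings.

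**Figure D3:**
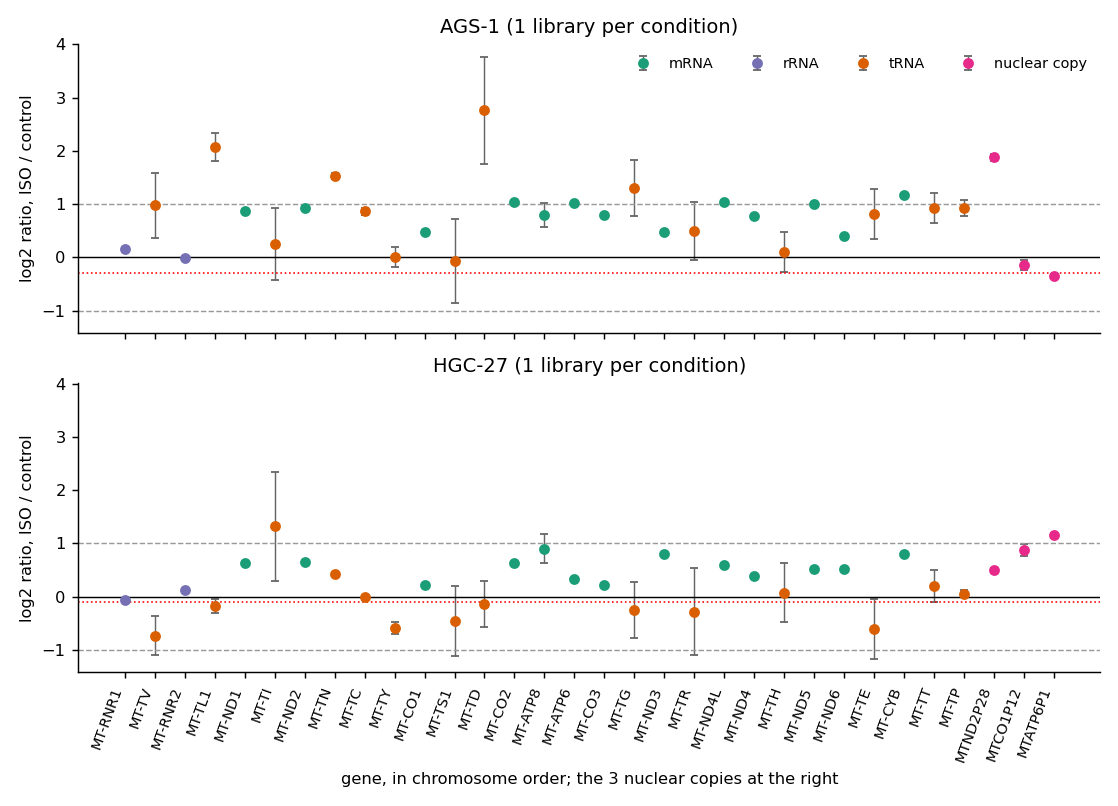
Log2 ratio of ISO to control for each member in AGS-1 (top) and HGC-27 (bottom), 1 library per condition, in chromosome order with the nuclear copies at the right; bars are 95% counting intervals, dashed lines mark 2-fold and the dotted line the median of all genes. The mRNA points lie above 0 in both panels, the tRNA points mostly above 0 in AGS-1 (13 of 14) and mostly below 0 in HGC-27 (9 of 14).

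The nuclear copies did not follow 1 pattern. MTND2P28 (chr1:629640-630683) had 149 and 554 FPKM in AGS-1 and 356 and 502 FPKM in HGC-27, so the AGS-1 control alone was low. Its fold of 3.71 in AGS-1 (3.54 to 3.88) exceeded the 1.90 of its parent MT-ND2 (1.88 to 1.92), while in HGC-27 the folds were 1.41 (1.37 to 1.45) and 1.57 (1.56 to 1.58). MTCO1P12 (chr1:631074-632616) had 80.0 and 72.7 FPKM in AGS-1 and 37.6 and 69.96 FPKM in HGC-27. MTATP6P1 (chr1:633696-634376), the most abundant copy, had 1027 and 809 FPKM in AGS-1 and 426 and 952 FPKM in HGC-27. For both the HGC-27 control was the low library, and the log2 ratios had opposite signs in the lines, -0.14 and 0.88 for MTCO1P12 and -0.34 and 1.16 for MTATP6P1. The AGS-1 ratios of these 2 copies turned positive, at up to 0.35 and 0.14, under other scalings.

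Set against the parent gene, a comparison in which scaling cancels, the copies ranged widely. MTND2P28 was at 4.27% and 8.31% of the FPKM of MT-ND2 in AGS-1 and at 9.12% and 8.18% in HGC-27. MTCO1P12 was below 1% of MT-CO1 in every library, at 0.500% and 0.328% in AGS-1 and 0.245% and 0.393% in HGC-27. MTATP6P1 was at 27.0% and 10.5% of MT-ATP6 in AGS-1 and at 7.74% and 13.7% in HGC-27, so its share was highest in the AGS-1 control. Given the identical runs described above, fragments from parent and copy cannot be told apart with certainty, and the values of all 6 genes are uncertain to that extent. Together the copies held between 0.0720% and 0.128% of the library, against at least 6.93% for the mRNAs.

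**Figure D4:**
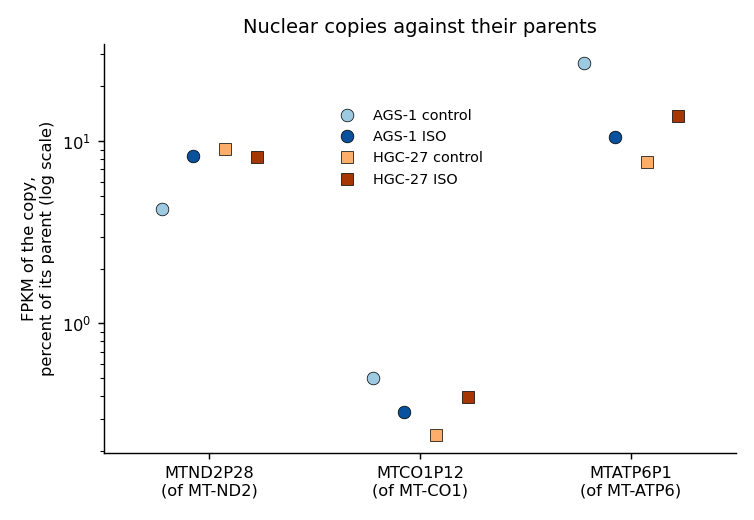
FPKM of each nuclear copy as a percent of the FPKM of its mitochondrial parent (log scale), 1 point per library. MTATP6P1 lies between 7.74% and 27.0% of MT-ATP6, MTND2P28 between 4.27% and 9.12% of MT-ND2, and MTCO1P12 below 1% of MT-CO1.

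The change shared by both cell lines was estimated by limma, fitted to log2(FPKM + 1) with terms for the treatment and the cell line. This fit has 1 residual degree of freedom and rests largely on the spread borrowed across genes, and the samples behind it are not known to be separate repeats of an experiment. No member was called at an adjusted p under 0.05, where 27 of all genes (0.937%) were called, 3 of them (0.104%) higher with ISO. At an unadjusted p under 0.05 there were 7 of 32 members, all higher, against 578 of all genes (20.05%), of which 64 (2.22% of all) were higher and 514 lower. The 7 were MT-ATP8, MT-CYB, MT-TD, MT-TL1, MT-TN, MT-TI and MTND2P28. The direction of all genes at this threshold depended on the scaling. With nuclear-sum scaling 325 were higher and 130 lower, and with median-of-ratios scaling 202 were higher and 309 lower. MT-ATP8 had the smallest adjusted p by limma, 0.0919, with a shared log2 change of 0.85 (SE 0.222). MTND2P28 had 1.19 (SE 0.339, adjusted p = 0.116), MT-TI 0.79 (SE 0.239, adjusted p = 0.121), MT-TD 1.31 (SE 0.455, adjusted p = 0.153) and MT-CYB 0.99 (SE 0.381, adjusted p = 0.187). For MT-TI, the counting SEs of the ratio within each line, 0.35 in AGS-1 and 0.52 in HGC-27, exceeded the SE of its shared change. Over all settings tried, the adjusted p of MT-ATP8 lay between 0.0402 and 1.00 and that of MTND2P28 between 0.0424 and 1.00. On the deposited scaling, the shared change was above 0 for 30 of 32 members, all but MT-TY and MT-TS1, and for 23.1% of all genes. Its median over the 13 mRNAs was 0.75. With nuclear-sum scaling, 66.3% of all genes had a ratio above 0 in AGS-1 and 52.8% in HGC-27, so the share of all genes depends on the scaling.

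**Figure D5:**
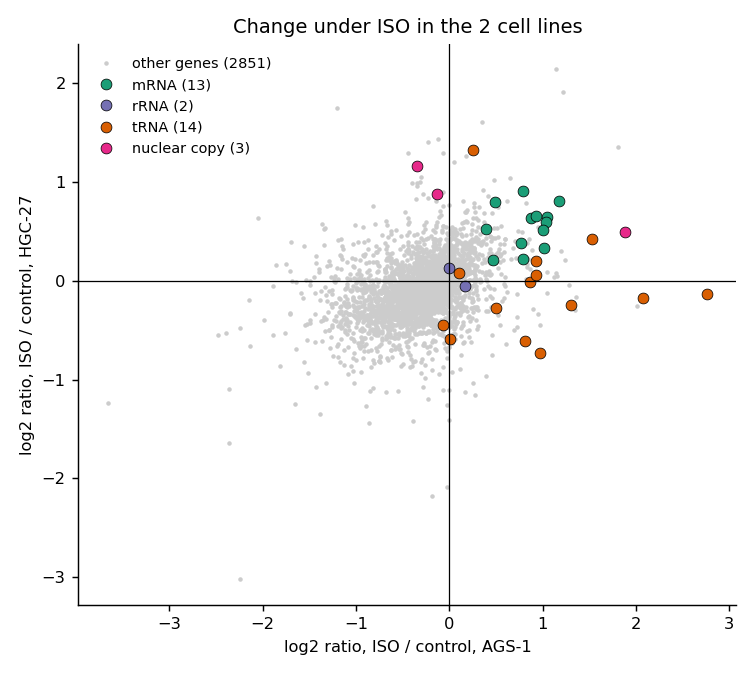
Log2 ratio of ISO to control in AGS-1 (horizontal) against HGC-27 (vertical) for the members, coloured by class, and all other genes tested (grey); 1 library per condition and line. The 13 mRNAs lie at the upper right, 8 of 14 tRNAs in the lower right, and 2 of 3 nuclear copies in the upper left.

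Between the cell lines, 11 of 32 members differed at an adjusted p under 0.05 in the same limma fit, where 56.9% of all genes did. Of the tRNA genes, 9 of 14 differed, 4 higher in AGS-1 and 5 higher in HGC-27. MT-TR and MT-TH were higher in AGS-1 by log2 differences of 1.40 (SE 0.222) and 1.28 (SE 0.214), followed by MT-TI (1.25) and MT-TE (0.77). MT-TI and MT-TR had only 11 to 39 and 20 to 67 fragments per library. The limma SE borrows its spread from genes of like FPKM, and for such genes counting error alone may exceed it. MT-TP (-1.73, adjusted p = 0.0011), MT-TL1 (-1.46), MT-TD (-1.41), MT-TV (-1.19) and MT-TY (-1.15) were higher in HGC-27. Each difference averages the control and the ISO library of a line. For MT-TD the lines had 8.69 and 69.2 FPKM in the controls but 64.5 and 62.9 FPKM with ISO (AGS-1 first). The differences of MT-TL1 and MT-TV also lay mainly in the controls. That of MT-TE lay in the ISO libraries (94.5 and 33.1 FPKM, controls 53.3 and 50.9 FPKM). Of the mRNAs, 2 of 13 differed, both higher in AGS-1: MT-ATP8 by 0.89 (adjusted p = 0.0041) and MT-ND6 by 0.93 (adjusted p = 0.0496). The other 11 mRNAs had differences between -0.19 (MT-ATP6) and 0.59 (MT-ND5). Under at least 1 other setting the calls of MT-ND6, MT-TV, MT-TL1, MT-TD and MT-TE were lost, and without the variance trend MT-TC (adjusted p by limma 0.0281) and MT-ND5 (0.0431) were called. Neither rRNA passed, MT-RNR1 having a difference of -0.82 (SE 0.350, adjusted p = 0.0619, and between 0.00763 and 0.0784 over all settings tried), and no nuclear copy did.

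Nuclear genes that serve the same system lay near the median of all genes. Of 75 listed nuclear genes for subunits of complexes I, III, IV and V, 46 were in the table, and 40 were lower with ISO in AGS-1 and 32 in HGC-27, with medians of -0.29 and -0.13, where 78.8% and 64.2% of all genes were lower. None was at least 2-fold changed in either line and none was called by limma, with 6 at an unadjusted p under 0.05, where 20.05% of all genes had one. ATP5F1B, a catalytic subunit of the ATP synthase, had 337 and 246 FPKM in AGS-1 and 827 and 653 FPKM in HGC-27, and the complex IV subunit gene COX8A had 93.3 and 63.9 FPKM and 243 and 150 FPKM. Of 83 genes of mitochondrial ribosomal proteins, 42 were in the table, of which 35 were lower in AGS-1 and 33 in HGC-27 (medians -0.26 and -0.21, none called, 7 at an unadjusted p under 0.05). The medians of all genes were -0.29 and -0.11. The direction depended on the scaling, since with nuclear-sum scaling 14 and 23 of the 46 subunit genes and 13 and 28 of the 42 ribosomal protein genes were lower in AGS-1 and HGC-27, with AGS-1 medians of 0.13 and 0.20.

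Few of the genes that make and process mitochondrial RNA were in the table. POLRMT, the mitochondrial RNA polymerase, had 30.4 and 25.3 FPKM in AGS-1 and 39.6 and 37.2 FPKM in HGC-27, and with POLG, the mitochondrial DNA polymerase, and MGME1, a mitochondrial exonuclease, it made up the 3 of 17 listed genes of transcription and DNA maintenance that were measured. Of 36 genes of RNA processing, stability and decay, 5 were measured, with medians of -0.16 (0.30 with nuclear-sum scaling) and -0.24. HSD17B10, a subunit of the mitochondrial RNase P that cuts the 5′ ends of tRNAs, had 21.0 and 12.7 FPKM in AGS-1 and 43.9 and 35.04 FPKM in HGC-27 (shared change by limma with adjusted p = 0.187). FASTK, which acts on the MT-ND6 mRNA, had 24.9 and 28.9 FPKM and 35.3 and 41.6 FPKM. Of 29 genes of translation and assembly, 5 were measured, with medians of -0.22 (0.26 with nuclear-sum scaling) and 0.04, and TUFM, the mitochondrial elongation factor, had 203 and 156 FPKM in AGS-1 and 165 and 140 FPKM in HGC-27. Across these 3 lists no measured gene was at least 2-fold changed or called, and 1 of 13, in the RNA processing list, had an unadjusted p under 0.05.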

How the data were processed

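Total RNA of the cells was turned into libraries by an mRNA kit for an Illumina NextSeq. The submitters' processing notes name CASAVA 1.8, HISAT2 and GRCh38 (hg38). The counting tool, the annotation release, strand use and how the listed genes were chosen are not given in the sources used here. The authors deposited 1 table of FPKM values for 2897 genes with lengths and coordinates. Since FPKM keeps gene length and library size, whole fragments were recovered from it and used for depth, shares and counting intervals only. Library totals were 15235004 to 20199425 fragments, and intervals cover counting error only.

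Log2 ratios of ISO to control used a pseudocount of 1 FPKM. Within a line no p-value was computed, since there is 1 library per condition, and a 2-fold change served as threshold. R 4.3.3 with limma 3.58.1 (lmFit, then eBayes with a trend; terms for treatment and cell line) was run on the 2883 genes averaging 1 FPKM or more, with Benjamini-Hochberg adjustment over all of them and a threshold of 0.05. The cell line is the block that pairs the libraries. Count tests were not used, as the deposited values are FPKM. The script was tested on simulated data in which ISO changed genes alike in both lines. That test does not cover genes whose change differs between the lines. Shares have exact (Clopper-Pearson) 95% intervals, and folds have exact conditional ones. Copies were aligned to their parents with Biopython 1.88. Coordinates are those of the table, and all 32 members had the same start and end in GENCODE 29, whose transcripts gave the sequences.

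All members may be named. From the gene lists, the genes named are those with a 2-fold change or a limma call and the 3 with the highest mean FPKM, of which a part is printed. The members and lists were chosen with earlier results of these data known. Leukocyte markers (0 of 4 in the table) were not analysed here. Alternatives were other pseudocounts, filters and scalings, no cell line term and no variance trend. Other steps used Python 3.11.15, scipy 1.17.1, numpy 2.4.6, pandas 2.3.3 and, for plots, matplotlib 3.10.9.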

Additional observations from a re-analysis of the deposited data

Results flagged for a closer look

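For 6 members the cell lines went opposite ways, each with a counting interval away from no change in both lines. With 1 library per condition, this difference between AGS-1 and HGC-27 was not tested, and the intervals cover counting error only. As log2 ratio in AGS-1 minus that in HGC-27, the differences were 2.26 for MT-TL1, 1.71 for MT-TV and 1.42 for MT-TE, the genes of the tRNAs for leucine, valine and glutamate, all higher with ISO in AGS-1 and lower in HGC-27. MT-RNR1, the rRNA of the small subunit, had a difference of 0.22. The nuclear copies MTCO1P12 and MTATP6P1 had differences of -1.01 and -1.5004, lower with ISO in AGS-1 and higher in HGC-27. The AGS-1 ratios of MTCO1P12 (-0.14 to 0.35) and MTATP6P1 (-0.34 to 0.14) and the HGC-27 ratio of MT-RNR1 (-0.06 to 0.10) took either sign over the scalings tried, while those of MT-TL1, MT-TV and MT-TE kept theirs in both lines.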

How the results depend on the processing

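All 13 mRNAs stayed above 0 in both lines under every setting tried. Under median-of-ratios, upper-quartile, nuclear-sum and library-total-without-mitochondria scaling (the last chosen after seeing the data), the median of all genes moved by 0.26, 0.38, 0.44 and 0.08 in AGS-1 and by 0.06, 0.14, 0.12 and 0.04 in HGC-27. The mRNA median became 1.15, 1.29, 1.36 and 0.95 in AGS-1 and 0.66, 0.74, 0.73 and 0.63 in HGC-27. Members at least 2-fold higher became 20 in AGS-1 under each of the first 3, and 4 in HGC-27 under upper-quartile and nuclear-sum scaling. All genes at least 2-fold higher and lower in AGS-1, 24 and 192, became 50 and 72, 60 and 45, 75 and 38, and 31 and 153. The limma calls of the shared change, 27 genes, became 107 with a pseudocount of 0.1, 12 with 5, 6 without a filter, 104 with a minimum of 10 FPKM, 6 without the variance trend and 0 under all 4 scalings, with 422 to 511 genes at an unadjusted p under 0.05. Without the replicate block, that is without pairing the libraries by cell line, 0 genes were called and 15 had an unadjusted p under 0.05. Of the members, 2 were called with a pseudocount of 0.1 (MTND2P28 and MT-ATP8) and 4 with a minimum of 10 FPKM (MT-TD and MT-TI as well, adjusted p by limma 0.0452 to 0.0485). The shared change of MT-TY turned to 0.023 under nuclear-sum scaling, and that of MT-TS1 to 0.018 (upper quartile) and 0.042 (nuclear sum). Between the lines, 7 members were called under the library total without mitochondria, where MT-RNR2 turned to 0.00385. Differences turned negative under upper-quartile and nuclear-sum scaling for MT-ND1 (-0.085 and -0.10), MT-CO1 (-0.032 and -0.051), MT-CO3 (-0.016 and -0.035), MT-ND4L (-0.18 and -0.20) and MT-CYB (-0.14 and -0.16), and under median-of-ratios scaling for MT-ND4L (-0.050) and MT-CYB (-0.00566). The cause was not tested. Of whole libraries rather than listed genes, the mitochondrial share was 9.43%, 14.3%, 9.75% and 12.4%. Leaving out a library leaves no residual degree of freedom, so no such fit was made, and the ratio within each line is the value without the other. Depth limits the tRNA genes with few fragments, such as MT-TD with 9 in the AGS-1 control.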
